A study of Homo sapiens with 12 samples.

Results

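The transcripts described here code for the machinery that attaches chromosomes to the mitotic spindle and delays anaphase until every chromosome is attached. They were 45 genes of the 44659 listed, taken by symbol, with earlier results of these data known. They were sorted by role into 4 genes of CENP-A deposition, 12 of the inner kinetochore (the constitutive centromere associated network, CCAN), 14 of the outer kinetochore and corona, 7 of the spindle checkpoint, 2 mitotic kinases, 4 of the chromosomal passenger complex and 2 shugoshins. All 45 had a row in the count table, and 43 passed the filter on low counts. The other two, CENPP and SKA1, could not be tested, with at most 18 counts in a library for CENPP and at most 3 for SKA1.

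A centromere is marked by nucleosomes that hold CENP-A in place of histone H3. The inner kinetochore is built on this chromatin throughout the cell cycle. In mitosis it recruits the KNL1, MIS12 and NDC80 complexes, and the NDC80 complex grips the microtubule ends. Unattached kinetochores gather the checkpoint proteins, which hold back CDC20, the activator of the anaphase-promoting complex (APC/C). Aurora B, in the passenger complex, weakens wrong attachments. Many of these genes are transcribed mainly in late S, G2 and M phase of dividing cells.

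A375 cells, an established human melanoma line, were studied in 4 groups of 3 replicate cultures. The controls (CC) were kept with the solvent DMSO for 72 h. In the treated group (TC), cells were exposed for 72 h to 500 nM of the BRAF inhibitor vemurafenib and 500 nM of the MEK inhibitor cobimetinib and taken at day 0. Persister cells (PC) had this exposure and then 2 days without drug, and recovered cells (RC) had 9 days without drug. All libraries were made from cytoplasmic RNA depleted of ribosomal RNA, from a single cell line. CC and TC were both day 0 harvests, whereas PC and RC each had a day of their own, so harvest day and group cannot be told apart there. TC, PC and RC were all set against the same CC libraries.

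The libraries held 37773389 to 55567097 counts. The 45 genes took 0.233% to 0.294% of the counts in CC, 0.0467% to 0.0535% in TC, 0.0953% to 0.105% in PC and 0.422% to 0.436% in RC. CC replicate 2 had the highest share of the CC libraries (0.294%, against 0.233% and 0.235%). For TC and RC against CC, some values without it are therefore also given. They are not given for every gene, nor for any single gene in PC against CC. As for the label, SOX10, MITF, DCT, PMEL and S100B were present in CC, whereas MLANA had at most 31 counts per CC library. Of the 5 keratinocyte markers KRT5, KRT1 and DSG3 were at 0 in CC and KRT14 had at most 2 counts, but KRT10 was at 40.6 to 52.1 CPM (counts relative to the TMM-scaled library size) in CC and 88.1 to 94.4 CPM in TC. CD3E and CDH5 were at 0 in CC, while the endothelial marker VWF was at 3.36 to 5.21 CPM and the epithelial marker KRT8 at 7.74 to 12.7 CPM. The summed level of the 8 melanocyte lineage markers was 1828 to 2006 CPM in CC, 7224 to 10427 in TC, 3647 to 5256 in PC and 1635 to 1695 in RC. DCT made up most of the difference, with means of 407 (CC) and 6452 CPM (TC), whereas S100B had means of 264 and 140 CPM and MITF means of 362 and 321 CPM. The part of these markers in the results was not tested.

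The comparison of TC with CC asked how 72 h of BRAF and MEK inhibition changed these transcripts. Nearly the whole set fell, and AURKB, NUF2, PLK1 and CDC20 fell most, by 17.5-fold to 23.6-fold. By edgeR's quasi-likelihood test with Benjamini-Hochberg adjustment over all tested genes, TC had lower levels of 40 of the 43 tested genes (adjusted p under 0.05), against 34.7% of all 15916 tested genes. Beyond 1.5-fold, 38 were lower, against 19.3% of all tested genes. In 40 genes every TC library lay below every CC library, against 34.7% of all tested genes. The median log2 fold change of the 43 genes was -3.03, beside -0.02 over all tested genes, and it was -2.85 without CC replicate 2. In bulk RNA, fewer cells in the stages that express a gene and less RNA in each cell cannot be told apart.

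**Figure D1:**
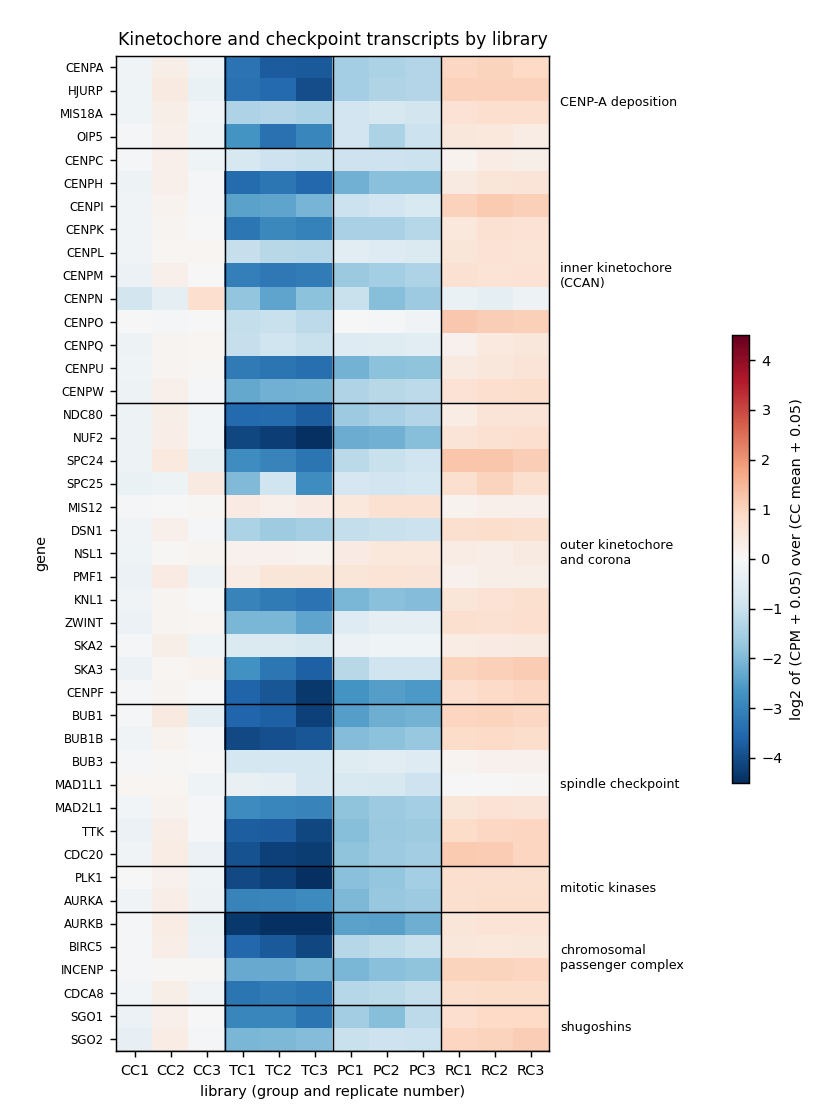
Level of each of the 43 tested genes (rows, by class) in each of the 12 libraries (columns), as the log2 ratio of CPM to the mean CPM of CC, with 0.05 CPM added to both (colour scale, blue below and red above the CC mean). TC columns are the deepest blue, PC columns are paler and RC columns are mostly red, and MIS12, NSL1 and PMF1 are the rows without blue in TC.

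CENP-A deposition fell by a median of 3.32 on the log2 scale, with 4 of 4 genes lower. CENPA, the histone variant itself (chr2:26764289-26801067, plus strand, GENCODE v44 on GRCh38), was at 35.1, 46.7 and 34.4 CPM in CC and at 3.78, 2.84 and 2.78 CPM in TC. Every TC library was less than every CC library, and the log2 fold change was -3.63 (SE 0.15, adjusted p 1.0e-09). HJURP, the chaperone that loads CENP-A, moved with it, from 97.1 ± 27.3 to 7.97 ± 1.73 CPM (mean ± SD, n = 3), and its log2 fold change was -3.62 (SE 0.20). OIP5 and MIS18A belong to the MIS18 complex that prepares the site of loading. OIP5 fell by 3.03 on the log2 scale. However, 92.5% of its exon bases are shared with annotations on either strand, such as OIP5-AS1 and NUSAP1, so its counts are uncertain. MIS18A had the smallest fall of the class, from 21.2, 28.5 and 22.2 CPM in CC to 9.15, 9.56 and 8.80 CPM in TC (log2 fold change -1.39, SE 0.11).

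In the inner kinetochore, 11 of 11 tested genes were lower in TC, with a median log2 fold change of -2.31 and a wide range from -3.42 to -0.89. CENPH (chr5:69189574-69210357, plus strand), a subunit of the CENP-H/I/K group, had the largest fall, from 62.4, 85.6 and 70.0 CPM in CC to 6.58, 7.61 and 6.17 CPM in TC (log2 fold change -3.42, SE 0.14, adjusted p 9.8e-10). CENPU fell by 3.30, CENPM by 3.16 and CENPK by 3.08 on the log2 scale. The smallest fall was that of CENPC (chr4:67468762-67545503, minus strand), the protein that links CENP-A nucleosomes to the MIS12 complex. It was at 19.4, 24.2 and 17.97 CPM in CC and at 12.4, 10.6 and 10.3 CPM in TC, so the groups did not overlap, and its log2 fold change was -0.89 (SE 0.11, adjusted p 2.2e-05). CENPQ, CENPO and CENPL lay near it, at -0.98, -1.09 and -1.20, but 31.6% of the exon bases of CENPO are shared with ADCY3 and PTRHD1. CENPN was called lower on 10, 15 and 39 counts in CC and 4, 2 and 5 in TC, and 23.1% of its exon bases are shared with other annotations.

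The outer kinetochore was the class that divided. Of its 13 tested genes 10 were lower in TC, 2 were higher (33.2% of all tested genes were higher) and 1 was not called. In the NDC80 complex, the microtubule coupler, NUF2 (chr1:163266576-163355764, plus strand) had the largest fall of the class, from 47.7, 68.6 and 50.4 CPM in CC to 3.19, 2.91 and 2.39 CPM in TC (log2 fold change -4.30, SE 0.17, adjusted p 7.3e-10). Its dimer partner NDC80 fell by 3.57 and SPC24 by 3.05 on the log2 scale. SPC25 was called lower on few reads, 18, 21 and 36 counts in CC against 4, 11 and 2 in TC. Per kilobase of exon, the CC levels were 11.99 CPM for NDC80, 16.5 for NUF2 and 7.10 for SPC24 but 0.306 for SPC25, and a numbered second entry for SPC25 held another 18, 59 and 48 counts in CC. A numbered second entry for SKA1, likewise looked up after the values were seen, held 212, 26 and 38 counts in CC and 4, 6 and 4 in TC, whereas the SKA1 row itself was at 0 in both groups. KNL1, the scaffold on which BUB proteins dock, fell by 3.18 (SE 0.10), SKA3 of the SKA complex by 3.22 and CENPF of the corona by 3.90.

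The MIS12 complex, which joins the inner to the outer kinetochore, has 4 subunits, and 3 of them did not fall. MIS12 (chr17:5486285-5490814, plus strand) was at 23.0, 24.3 and 25.3 CPM in CC and at 31.5, 28.3 and 31.4 CPM in TC. All TC libraries were above all CC libraries, and its log2 fold change was 0.33 (SE 0.08, adjusted p 0.0024). NSL1 (chr1:212726153-212791782, minus strand) was at 27.5, 33.1 and 34.3 CPM in CC and at 36.0, 36.3 and 35.6 CPM in TC. These groups did not overlap either, but the difference of 0.18 (SE 0.08) had an adjusted p of 0.059 and was not called. Over the alternatives that p ran from 0.016 to 0.23, and NSL1 was called higher with DESeq2 (0.044), relative log expression size factors (0.0499), the replicate block (0.046), without CC replicate 2 (0.047) and without CC replicate 3 (0.016).

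PMF1 (chr1:156212993-156240042, plus strand) was at 5.21, 8.13 and 5.35 CPM in CC and at 7.96, 9.05 and 9.16 CPM in TC. Its groups overlapped through CC replicate 2, and its log2 fold change of 0.48 (SE 0.16, adjusted p 0.015) was not called without CC replicate 1 (adjusted p 0.063), without CC replicate 3 (0.052) or in a fit of CC and TC alone (0.067), with a range of 1.2e-04 to 0.067 over all alternatives. Without CC replicate 2 it was 0.72 (adjusted p 1.2e-04). PMF1 shares 23.3% of its exon bases with the read-through annotation PMF1-BGLAP, which had 0 counts in all 12 libraries. How reads in shared exons were assigned was not given, so this 0 does not show whether PMF1 lost reads there. The fourth subunit, DSN1 (chr20:36751791-36773818, minus strand), went the other way, from 28.1, 36.6 and 29.2 CPM in CC to 11.6, 10.2 and 11.2 CPM in TC (log2 fold change -1.51, SE 0.10, adjusted p 5.6e-08). SKA2 was the least lowered of the outer genes that fell, at 80.6, 103 and 74.4 CPM in CC and 54.9, 54.8 and 52.6 CPM in TC (log2 fold change -0.67, SE 0.10).

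**Figure D2:**
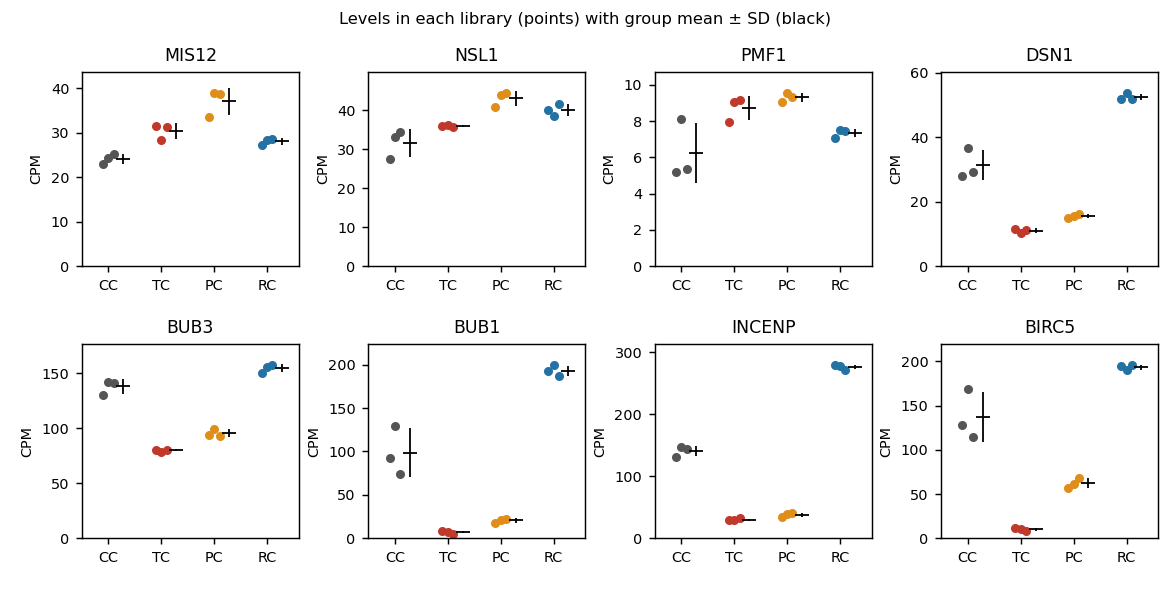
CPM in each library (points, vertical axes from 0) and the group mean ± SD over 3 libraries (black) for the 4 MIS12 complex subunits, BUB3, BUB1, INCENP and BIRC5. DSN1 drops in TC from a mean of 31.3 to 11.0 CPM while MIS12, NSL1 and PMF1 do not, and INCENP stays near its TC level in PC (30.0 and 37.3 CPM) whereas BIRC5 goes from 9.94 to 62.2 CPM.

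All 7 spindle checkpoint genes were lower in TC, with the lowest median of the 7 classes, -3.81, and 2 members, BUB3 and MAD1L1, stood apart from the rest. CDC20 (chr1:43358981-43363203, plus strand), the APC/C activator that the checkpoint restrains, fell most, from 170, 238 and 156 CPM in CC to 12.3, 10.2 and 9.76 CPM in TC (log2 fold change -4.13, SE 0.17, adjusted p 9.8e-10). TTK, BUB1 and BUB1B fell by 3.87, 3.81 and 3.97 on the log2 scale, and the log2 fold change of MAD2L1, which binds CDC20, was -2.94. BUB3, the partner that carries BUB1 and BUB1B to KNL1, was at 130.4, 142 and 141 CPM in CC and at 80.4, 78.7 and 80.5 CPM in TC (log2 fold change -0.79, SE 0.05, adjusted p 8.9e-08). MAD1L1 (chr7:1815793-2233243, minus strand), the kinetochore receptor of MAD2, was at 66.8, 66.3 and 54.8 CPM in CC and at 49.2, 45.9 and 37.5 CPM in TC. Its groups did not overlap, its log2 fold change was -0.50 (SE 0.11, adjusted p 0.0010), and 43.2% of its exon bases are shared with another annotation.

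The mitotic kinase PLK1 (chr16:23677656-23690367, plus strand) was at 103, 117 and 90.1 CPM in CC and at 6.12, 5.62 and 4.51 CPM in TC (log2 fold change -4.26, SE 0.14, adjusted p 1.9e-10). AURKA, the spindle pole Aurora kinase, was at 95.1, 132 and 91.2 CPM in CC and at 13.2, 13.5 and 14.6 CPM in TC (-2.95, SE 0.14). In the passenger complex the catalytic subunit AURKB (chr17:8204733-8210600, minus strand) had the largest fall of all 43 genes, from 79.9, 107 and 69.7 CPM to 4.20, 3.73 and 3.04 CPM, which is 23.6-fold (log2 fold change -4.56, SE 0.17, adjusted p 5.5e-10). BIRC5 (survivin) and CDCA8 (borealin), which place the complex at the centromere, fell by 3.79 and 3.27 on the log2 scale. The scaffold INCENP had the smallest fall of the class, from 131, 147 and 144 CPM to 28.8, 29.4 and 31.9 CPM (-2.23, SE 0.08, adjusted p 3.1e-10). The shugoshins, which protect centromeric cohesion, also fell, with SGO1 at 7.06, 9.92 and 8.25 CPM in CC and 1.06, 1.05 and 0.821 CPM in TC (-3.11, SE 0.21), and SGO2 at 25.6, 42.0 and 31.6 CPM in CC and 7.88, 8.15 and 8.58 CPM in TC (-2.01, SE 0.14).

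The promoters of these genes are shown because cell cycle genes of the G2 and M phases are known for 2 short elements near the start site, a cell cycle homology region (CHR) that is bound by the MuvB complex and CCAAT boxes that are bound by NF-Y. RefSeq windows on GRCh38.p14, from 250 bases before to 50 bases after a start site, were found for 36 of the 45 genes (42 windows), and a gene was counted once if any of its windows held a match. On either strand the CHR was searched as TTTGAA or TTCGAA, the NF-Y box as CCAAT, and the E2F site as TTTCCCGC or TTTGGCGC or TTTCGCGC or TTTGCCGC. Below are the last 130 bases before the start site (base -1 is the last), written 5′ to 3′ on the strand of the gene, with matches to any of these words on either strand in capitals. The first 5 genes fell in TC and the last 3 are the MIS12 complex subunits that did not.
CENPA chr2:26785926-26786055 (plus strand): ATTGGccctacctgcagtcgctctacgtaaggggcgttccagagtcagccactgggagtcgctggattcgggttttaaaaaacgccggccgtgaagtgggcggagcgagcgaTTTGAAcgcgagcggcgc
CDC20 chr1:43358851-43358980 (plus strand): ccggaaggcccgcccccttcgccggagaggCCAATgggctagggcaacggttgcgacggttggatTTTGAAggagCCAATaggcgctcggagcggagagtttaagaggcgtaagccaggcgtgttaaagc
PLK1 chr16:23678759-23678888 (plus strand): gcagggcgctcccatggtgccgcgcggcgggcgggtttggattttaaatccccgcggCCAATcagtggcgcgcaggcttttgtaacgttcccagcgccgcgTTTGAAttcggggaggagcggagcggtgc
CDCA8 chr1:37692386-37692515 (plus strand): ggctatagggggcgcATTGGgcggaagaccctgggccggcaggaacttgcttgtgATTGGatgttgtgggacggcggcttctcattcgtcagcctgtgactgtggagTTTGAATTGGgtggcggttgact
INCENP chr11:62123881-62124010 (plus strand): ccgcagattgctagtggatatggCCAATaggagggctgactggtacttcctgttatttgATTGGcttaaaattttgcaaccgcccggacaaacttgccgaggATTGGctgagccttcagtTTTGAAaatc
MIS12 chr17:5486244-5486373 (plus strand): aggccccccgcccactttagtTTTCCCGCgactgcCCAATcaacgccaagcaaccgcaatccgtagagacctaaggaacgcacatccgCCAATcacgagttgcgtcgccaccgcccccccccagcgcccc
NSL1 chr1:212791778-212791907 (minus strand): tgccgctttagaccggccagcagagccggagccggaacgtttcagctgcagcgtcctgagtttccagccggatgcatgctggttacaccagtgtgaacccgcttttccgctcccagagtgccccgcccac
PMF1 chr1:156212877-156213006 (plus strand): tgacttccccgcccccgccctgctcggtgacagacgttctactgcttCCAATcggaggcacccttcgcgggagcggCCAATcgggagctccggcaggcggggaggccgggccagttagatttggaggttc

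In these stretches the CHR begins at base -18 in CENPA, -65 in CDC20, -29 in PLK1, -23 in CDCA8 and -10 in INCENP, and in CDCA8 its last base is also the first base of an NF-Y box. CDC20 has NF-Y boxes at -100 and -55 on both sides of its CHR, and PLK1 has one at -73. MIS12 and PMF1 hold NF-Y boxes but no CHR, MIS12 also holds an E2F site at -109, and NSL1 holds none of the words in its window. DSN1, the MIS12 complex subunit that fell, likewise holds none of the words in its window, so the CHR does not separate these subunits. Among the genes with a window, 22 of 36 (61.1%) held a CHR, against 19.5% of all 27305 genes in the promoter table and 16.0% of the 11587 tested ones. The CHR was in 21 of the 29 genes that were lower beyond 1.5-fold in TC and in 0 of the 5 other tested genes, which were MIS12, NSL1, PMF1, SKA2 and MAD1L1. AURKB, with the largest fall, had no CHR in either of its windows. CENPI, CENPK, CENPQ, CENPU, SPC24, DSN1 and SGO2 were also lower beyond 1.5-fold without a CHR. NF-Y boxes were in 26 of 36 genes (72.2%), against 39.7% of all genes and 43.1% of the tested ones. E2F sites were in 4 of 36 (11.1%), against 3.99% of all genes and 6.44% of the tested ones. A match is a run of letters only, and the absence of a match says only that these letters are not in the window.

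**Figure D3:**
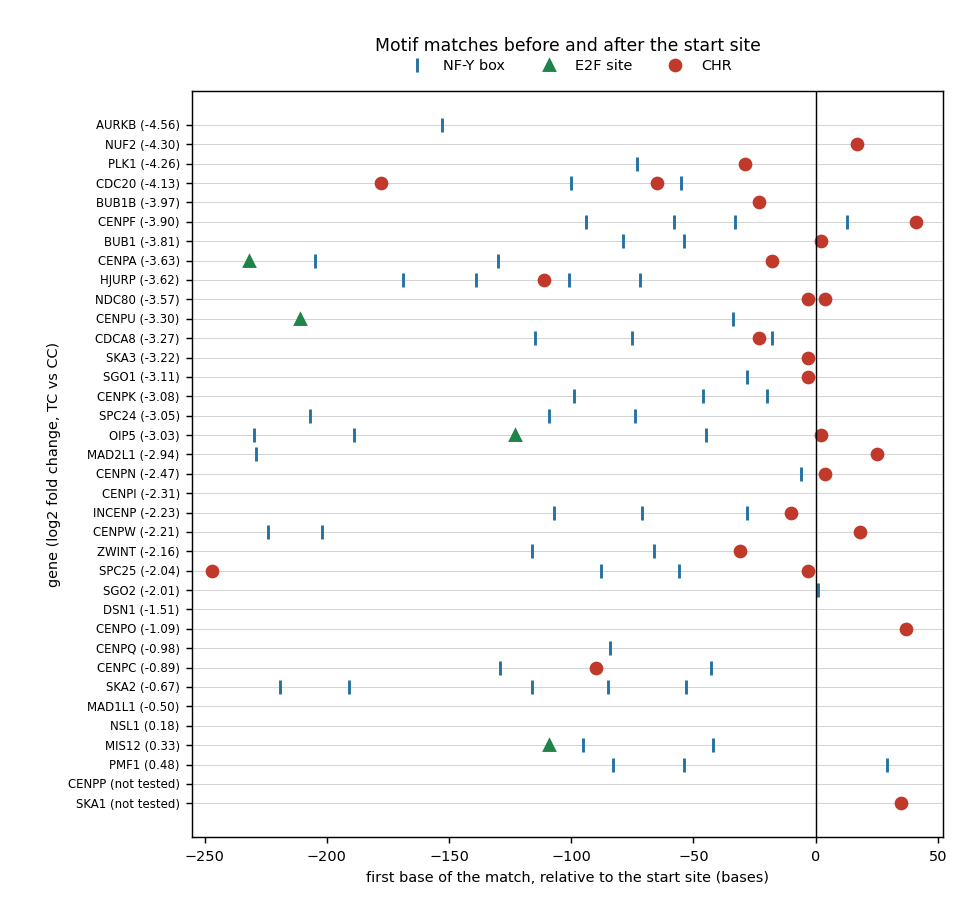
Position of the first base of each match (horizontal axis, bases from the start site) in the first listed window of 36 genes (rows, ordered by log2 fold change in TC, given in brackets). Most CHR matches (circles) lie from -31 to 41 bases, NF-Y boxes (ticks) lie mostly upstream, and the rows from SKA2 down to PMF1 carry no circle.

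Since subunits of a complex differed in their falls, read counts of partner genes were also divided within each library, which removes library scaling. The pairs were picked after the values were seen and are given as a description without a test. The ratio of MIS12 to DSN1 counts was 0.818, 0.663 and 0.866 for the CC libraries, but 2.71, 2.76 and 2.80 for TC. For PC it was 2.25, 2.52 and 2.41, and for RC 0.524, 0.529 and 0.553. It was thus higher in all 6 libraries of TC and PC than in any library of CC and RC, and the NSL1 to DSN1 and PMF1 to DSN1 ratios had the same order of groups. BUB3 counts were 1.47 ± 0.40 times the BUB1 counts in CC, 11.7 ± 3.01 times in TC, 4.71 ± 0.61 times in PC and 0.800 ± 0.033 times in RC (mean ± SD, n = 3). The ratio of MAD1L1 to MAD2L1, whose proteins form one complex, went from 0.736 ± 0.107 in CC to 3.94 ± 0.33 in TC, 1.36 ± 0.23 in PC and 0.497 ± 0.017 in RC. By contrast, CENPA to HJURP stayed at 0.406 ± 0.038, 0.399 ± 0.063, 0.389 ± 0.007 and 0.376 ± 0.011 in CC, TC, PC and RC, and all of these overlapped with the CC libraries.

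**Figure D4:**
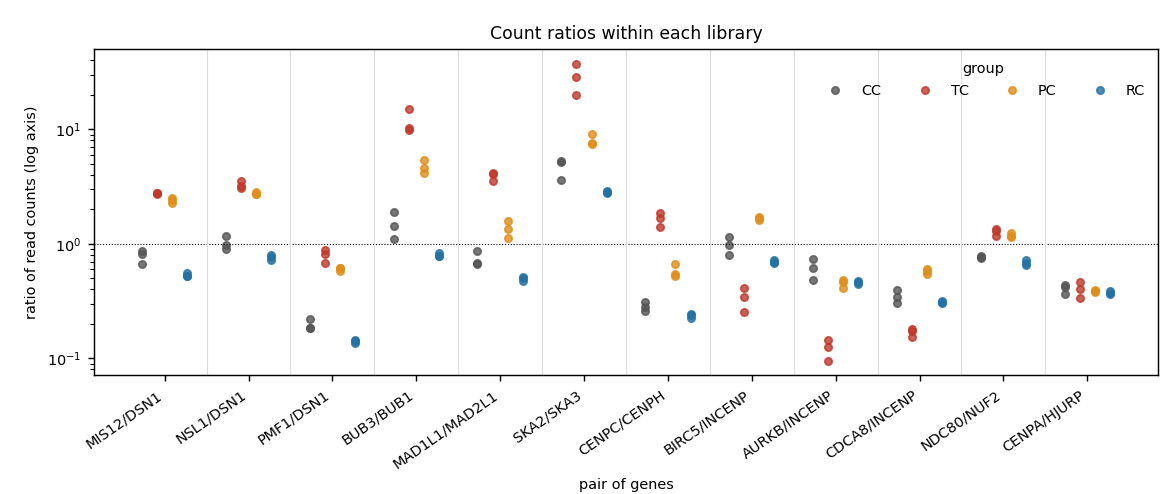
Ratio of the read counts of 2 genes within each library (points, log axis, colours by group) for 12 pairs of genes. MIS12/DSN1, BUB3/BUB1 and MAD1L1/MAD2L1 are higher in TC than in CC, BIRC5/INCENP is lower in TC and higher in PC than in CC, and CENPA/HJURP is at one level in the 4 groups.

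The comparison of PC with TC asked what changed in the first 2 days after the drugs were removed. Most of the set rose, by a median log2 fold change of 1.38 beside 0.00 over all tested genes. Of 43 genes 38 were higher (12.2% of all tested genes were), 28 of them beyond 1.5-fold (2.33%). By edgeR's adjusted test 0 were lower (1 at an unadjusted p under 0.05, 0 by DESeq2), whereas 1992 of all 15916 tested genes were lower by edgeR. The 5 that were not called were CENPC, CENPN, SPC25, PMF1 and MAD1L1. The call of NSL1 was lost without any one of TC replicates 1, 2 and 3 or PC replicates 2 and 3 (adjusted p 0.080 to 0.11), and that of MIS12 without TC replicate 2 or PC replicate 2 or 3 (0.077 to 0.084). BIRC5 rose most, from 11.8, 10.0 and 8.04 CPM in TC to 56.8, 61.8 and 67.9 CPM in PC (log2 fold change 2.65, SE 0.16, adjusted p 7.6e-07). PLK1 rose by 2.56 and CDC20 by 2.46 on the log2 scale, and CENPA and HJURP rose 4.61-fold and 4.67-fold. The class medians were 2.08 for CENP-A deposition, 1.03 for the inner kinetochore, 1.22 for the outer kinetochore, 1.55 for the checkpoint and 2.14 for the passenger complex.

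Within the passenger complex, INCENP barely rose. It was at 28.8, 29.4 and 31.9 CPM in TC and at 33.7, 38.3 and 39.9 CPM in PC, which did not overlap (log2 fold change 0.31, SE 0.07, adjusted p 0.0095). The ratio of BIRC5 to INCENP counts was 0.975, 1.15 and 0.794 for the CC libraries, but 0.408, 0.340 and 0.252 for TC. For PC it was 1.69, 1.61 and 1.70, and for RC 0.697, 0.684 and 0.718. The PC libraries were thus above, and the TC and RC libraries below, all CC libraries. CDCA8 to INCENP followed the same course in TC and PC, from 0.348 ± 0.047 in CC to 0.169 ± 0.013 and 0.574 ± 0.026, whereas AURKB to INCENP was lower than in CC in both, at 0.608 ± 0.123 in CC, 0.123 ± 0.025 in TC and 0.451 ± 0.036 in PC.

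CENPC and MAD1L1 were the only tested genes of the set with a negative estimate between PC and TC, and neither was called. CENPC was at 10.6, 10.8 and 10.5 CPM in PC, and its difference from TC of -0.06 (SE 0.12, adjusted p 0.75) turned to 0.03 without TC replicate 1. MAD1L1 was at 38.7, 37.9 and 33.1 CPM in PC, overlapping TC, with a difference of -0.27 (SE 0.11, adjusted p 0.083). MAD1L1 was called lower without TC replicate 3 (adjusted p 0.017) or without CC replicate 3 (0.049), and its adjusted p ran from 0.017 to 0.30 over the alternatives.

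Against CC, PC still had 37 of 43 genes lower (35.9% of all tested genes were), 33 of them beyond 1.5-fold (19.9%), with a median log2 fold change of -1.27. CENPF remained the farthest below, at 45.6, 52.6 and 49.7 CPM in PC and 277, 323 and 289 CPM in CC (log2 fold change -2.59, SE 0.15, adjusted p 1.7e-08), followed by AURKB at -2.35 and BUB1 at -2.26. INCENP, CENPH and KNL1 were at -1.91, -1.97 and -1.97. MIS12, NSL1 and PMF1 were the 3 genes called higher (33.2% of all tested genes were), at 0.62, 0.44 and 0.58, and MIS12 was at 33.5, 38.9 and 38.8 CPM. The remaining 3 genes were not called. These were CENPO at 9.68, 9.06 and 8.53 CPM in PC against 9.65, 9.19 and 9.52 in CC (log2 fold change -0.06, SE 0.09), SKA2 at -0.22 (SE 0.10) and SPC25 at -0.91 (SE 0.47).

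**Figure D5:**
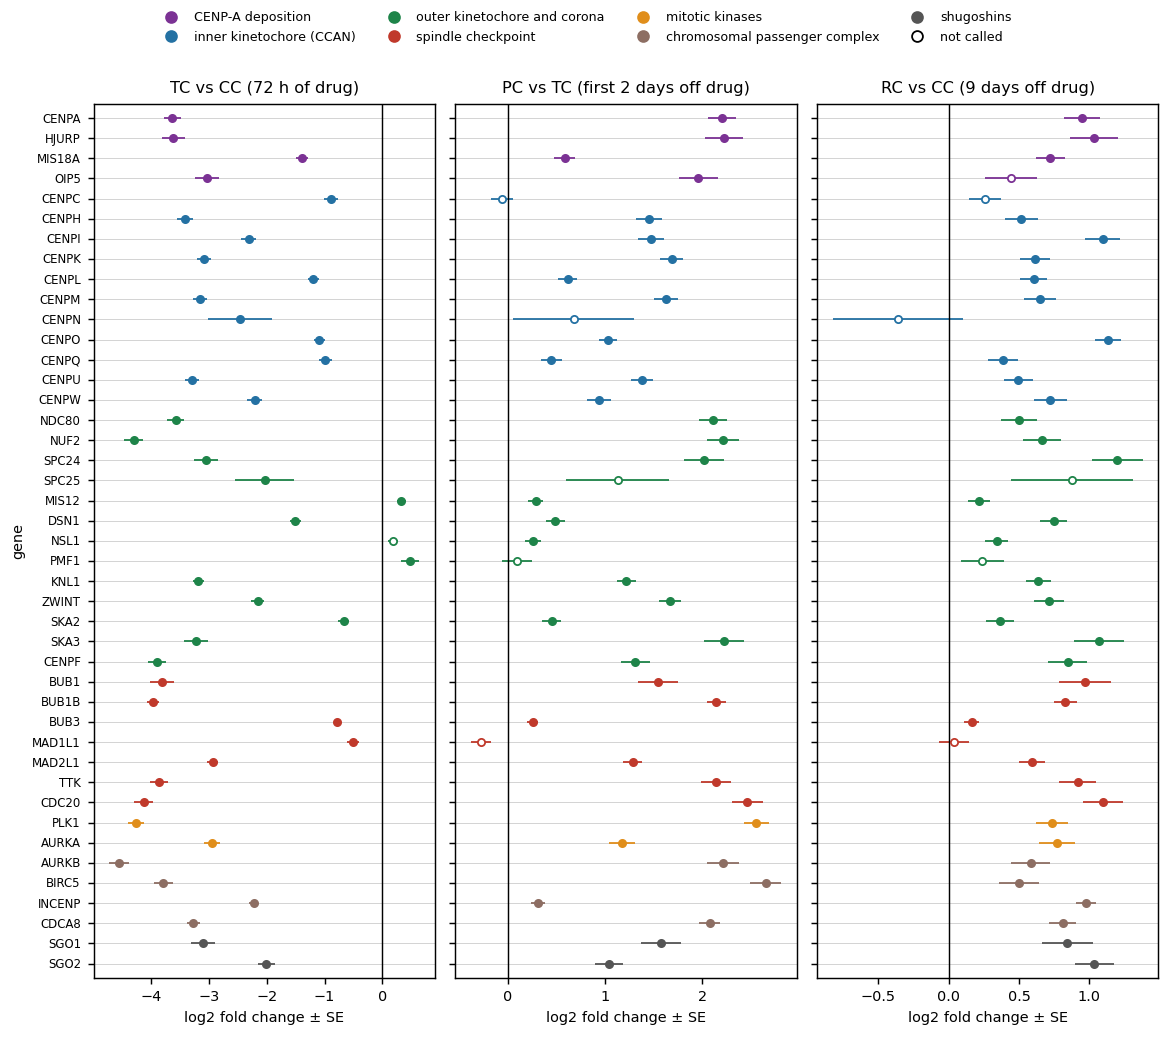
Log2 fold change ± SE of the 43 tested genes (rows, coloured by class, open where not called) for TC against CC, PC against TC and RC against CC, each on its own horizontal scale. In TC the points run from -4.56 to 0.48, in PC against TC from -0.27 to 2.65, and in RC against CC from -0.36 to 1.20.

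From day 2 to day 9 without drug the set rose again. In RC 40 of 43 genes were higher than in PC (35.7% of all tested genes were), 38 beyond 1.5-fold (20.2%), with a median log2 fold change of 2.00. CENPF rose most, from 45.6, 52.6 and 49.7 CPM to 495, 539 and 564 CPM (log2 fold change 3.43, SE 0.15, adjusted p 2.0e-09). BUB1 rose by 3.23, AURKB by 2.93 and INCENP by 2.89 on the log2 scale, while BIRC5 rose by 1.64. MIS12 was the 1 gene that was lower (34.2% of all tested genes were), going from 33.5, 38.9 and 38.8 CPM in PC to 27.3, 28.4 and 28.7 CPM in RC (log2 fold change -0.40, SE 0.08, adjusted p 5.6e-04). PMF1 at -0.34 (SE 0.15, adjusted p 0.068) and NSL1 at -0.10 (SE 0.08, adjusted p 0.26) were not called.

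RC was set against CC to ask whether the genes were back at the control level after 9 days. Most were above it. Of 43 genes 37 were higher (18.2% of all tested genes were) and 0 were lower by edgeR's adjusted test (0 at an unadjusted p under 0.05 and 0 by DESeq2, where 19.1% of all tested genes were lower by edgeR), with a median log2 fold change of 0.72. In 39 genes every RC library lay above every CC library, against 23.7% of all tested genes. Beyond 1.5-fold 8 genes were higher, against 1.35%, namely CENPA, CENPI, CENPO, SPC24, BUB1B, CDC20, INCENP and SGO2. That count depended on single libraries. It was 16 without CC replicate 2, 3 without CC replicate 1, 5 without CC replicate 3, and 4, 3 and 5 without RC replicates 1, 2 and 3.

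SPC24 was the farthest above control, at 17.2, 27.3 and 15.9 CPM in CC and 47.4, 47.6 and 43.9 CPM in RC (log2 fold change 1.20, SE 0.18, adjusted p 3.9e-04). CENPO, with 31.6% of its exon bases shared with other genes, followed at 1.13 (SE 0.09), from 9.65, 9.19 and 9.52 CPM to 22.1, 20.2 and 19.8 CPM. Next were CDC20 at 1.10 (SE 0.14) and CENPI at 1.10 (SE 0.13). INCENP was at 279, 278 and 272 CPM in RC against 131, 147 and 144 CPM in CC (0.98, SE 0.07, adjusted p 8.2e-06). The class medians were 0.84 for CENP-A deposition, 0.60 for the inner kinetochore, 0.66 for the outer kinetochore, 0.83 for the checkpoint, 0.70 for the passenger complex and 0.94 for the shugoshins, and differences between these medians were not tested.

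The 6 genes not called in RC were OIP5, CENPC, CENPN, SPC25, PMF1 and MAD1L1. OIP5 was at 8.09, 9.74 and 7.32 CPM in CC and 11.8, 11.8 and 10.5 CPM in RC, without overlap but with an adjusted p of 0.078 for 0.44 (SE 0.18). CENPC was at 22.9, 26.0 and 24.6 CPM in RC and overlapped CC (0.26, SE 0.11, adjusted p 0.093). MAD1L1 was at 64.2, 63.8 and 64.7 CPM in RC, inside the span of its CC libraries, with a difference of 0.04 (SE 0.10) that turned to -0.05 without CC replicate 3. PMF1 was at 7.09, 7.53 and 7.45 CPM in RC, also inside the span of CC (0.24, SE 0.16, adjusted p 0.25). Without CC replicate 2, OIP5 (0.56, adjusted p 0.045), CENPC (0.39, adjusted p 0.0086) and PMF1 (0.48, adjusted p 0.0046) were called higher. Over the alternatives the adjusted p ran from 0.027 to 0.18 for OIP5, 0.0086 to 0.25 for CENPC and 0.0046 to 0.59 for PMF1. MIS12 was called higher at 0.22 (SE 0.08, adjusted p 0.045), but not under several alternatives, among them leaving out CC replicate 1 (0.13), CC replicate 2 (0.064) or any single RC replicate (0.063 to 0.11), and over all alternatives its adjusted p ran from 0.023 to 0.13. CENPN had 15, 19 and 21 counts and SPC25 39, 66 and 51 counts in RC, so only large differences were detectable at this depth. The second entry for SPC25 had 518, 181 and 791 counts in RC against 18, 59 and 48 in CC, a spread between replicates that the SPC25 row did not have.

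The remaining genes of the pathway were a list of 35 partners, among them the APC/C, corona proteins and separase. In TC, 22 of 35 were lower (34.7% of all tested genes were) and 4 higher (33.2%), with a median log2 fold change of -0.45. PTTG1 (securin), which holds separase inactive until anaphase, was the largest fall of its list, from 195, 276 and 180.5 CPM in CC to 13.4, 11.96 and 11.8 CPM in TC (log2 fold change -4.13, SE 0.15, adjusted p 5.3e-10). Log2 fold changes were -4.00 for the kinetochore motor CENPE, -2.64 for TRIP13, which takes the checkpoint complex apart, and -2.87 for the APC/C ubiquitin carrier UBE2C. The corona list had 7 of 7 genes lower, while CENPB, CENPT and CENPX of the inner kinetochore list were not called, at 0.08 (SE 0.06), -0.11 (SE 0.10) and 0.12 (SE 0.08).

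The 18 genes of the APC/C list had 8 lower and 4 higher in TC, where 34.7% and 33.2% of all tested genes were lower and higher. The 4 that were higher were core subunits, ANAPC2 at 0.65 (SE 0.06, adjusted p 7.6e-07), ANAPC13 at 0.37 (SE 0.07), ANAPC16 at 0.36 (SE 0.07) and CDC26 at 0.30 (SE 0.10). ANAPC2, the cullin subunit, was at 30.5, 29.6 and 30.0 CPM in CC but at 47.3, 49.0 and 45.4 CPM in TC. It was at 44.1, 41.8 and 41.9 CPM in PC, and RC had 24.3, 24.8 and 23.7 CPM. It was thus above CC in all TC and PC libraries and below CC in all RC libraries (RC against CC -0.31, SE 0.06, adjusted p 0.0015). In PC against TC 14 of 35 partners were higher (12.2% of all tested genes were). In RC against PC 25 of 35 were higher and 4 lower (35.7% and 34.2% of all tested genes). In RC against CC 20 of 35 were higher and 5 lower (18.2% and 19.1% of all tested genes), the 5 being ITGB3BP, ANAPC2, ANAPC4, ANAPC13 and ANAPC16. In PC against CC, 21 of 35 partners were lower and 6 higher (35.9% and 33.2% of all tested genes), and PTTG1 was still at -3.09 (SE 0.14).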

How the data were processed

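The deposited table held raw read counts per gene, which the authors made with fastp 0.20.1, HISAT2 2.2.1 on GRCh38.p13 and htseq-count (HTSeq 0.13.5) on exons of the NCBI annotation. Strand setting and the handling of multi-mapping reads were not given in the sources used here. Genes with a mean scaled count of at least 10 over 12 libraries were tested (15916 genes). One quasi-likelihood model with TMM factors was fitted to all libraries (edgeR 4.0.16, R 4.3.3, 8 residual degrees of freedom). Calls used a two-sided adjusted p under 0.05 over all tested genes, and glmTreat for changes beyond 1.5-fold. The procedure was tested on simulated data. The p-values measure the spread between replicate cultures. A count of 3 was 0.0534 to 0.0785 CPM, for counting error only. Alternatives included DESeq2 1.42.0. The genes and lists were chosen with earlier results of these data known. All 45 genes may be named, with values in every library for the largest and smallest fall of each class and for genes not called or going the other way. Partners are named as the largest fall of their list or when called against the direction of most members. One such partner is not reported here. Exon sharing and lengths came from GENCODE v44, not from the NCBI annotation used for counting. Exons on either strand were included in the sharing, which would matter less if reads were counted by strand. Protein composition was not analysed here.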

Additional observations from a re-analysis of the deposited data

How the results depend on the processing

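No library pair within a group agreed within sampling noise. All counts and medians of the set kept their direction and stayed within 1.5 times, except those that follow. In TC against CC, 1 gene was higher in a fit of the 2 groups alone, and 1 to 3 when a library was left out. In PC against CC, the count higher beyond 1.5-fold was 0 to 1 when a library was left out (1 without CC replicate 2). In PC against TC, the count lower was 0 to 1 when a library was left out. In RC against PC, 2 were lower with DESeq2 and in a fit of the 2 groups alone, and 1 to 2 when a library was left out. In RC against CC, 5 were higher beyond 1.5-fold in a fit of the 2 groups alone, and 3 to 16 when a library was left out. When a library was left out, the median in TC ran from -3.09 to -2.85 (the latter without CC replicate 2), and the estimates of CENPC in PC against TC (-0.112 to 0.0305) and of MAD1L1 in RC against CC (-0.0462 to 0.0850) changed sign, neither being called. Single genes were checked only in TC against CC, PC against TC and RC against CC. There 2271 values kept their side of the threshold, 32 lost it and 14 gained it. The cause was not tested.

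Same-numbered deviations correlated weakly between groups (-0.04 to 0.16), with 0.155, 0.068 and 0.124 between TC and PC. However, 9 of 12 libraries correlated best with their own number. Whether the replicate numbers pair the samples was thus not settled, and the main model did not use them. With the replicate block, 1 gene was lower in PC against TC (MAD1L1), 3 were higher in TC against CC, and 10 were higher beyond 1.5-fold in RC against CC. The depth limits CENPN, SPC25, CENPP and SKA1, whose counts were low.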
